A study of Rattus norvegicus with 2 samples.

Results

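Fibroblasts with a high joint score for 4 genes, among them the smooth muscle actin gene Actg2 and the opioid precursor gene Penk, were examined in mixed cells of the rat optic nerve. They were chosen in a single-cell RNA experiment from how much they expressed 16 genes. A barcode was kept as a cell when it showed 500 or more genes and no more than 20% of its UMIs were mitochondrial, a UMI being a tag that marks 1 captured RNA molecule. It was taken as a fibroblast when Col1a1, Col3a1, Dcn and Lum together reached 500 CPM (UMIs per 1000000 UMIs), while Gfap, Fabp7 and Aqp4 stayed below 500 CPM and the division genes Top2a, Mki67, Ube2c and Cenpf below 300 CPM. Each fibroblast then received a mean z-score for 4 sets of 4 genes, and a cell was a member when the set of Actg2, Penk, Car3 and Mfap5 scored highest. Members numbered 626 of 2772 fibroblasts, 3761 kept cells and 4036 deposited barcodes. The other 3 fibroblast types are called here by the leading genes of their sets, namely the Ccn3 and Rspo3 type, the Cldn11 and Thbd type and the Inmt and Cyp26b1 type.

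The series held 1 library from wild-type (WT) Sprague Dawley rats and 1 from Nuc1 rats, which carry a spontaneous insertion in Cryba1, the gene of βA3/A1-crystallin. GEO's labels give postnatal day 7 for both, with no treatment and no number of animals, whereas the study's methods for cultures name younger pups. The sources differ on whether the cells were cultured, since the series title and the study's methods speak of a mixed culture and the design text of a suspension made from harvested nerve, and what culture adds to the values below was not tested. The libraries held 34517542 UMIs in 2107 WT barcodes and 35794685 UMIs in 1929 Nuc1 barcodes. With 1 library for each genotype no test between genotypes was possible, and every interval below is a 95% interval that covers counting error only. There were 534 WT and 92 Nuc1 members, with a median of 15407 and 23617 UMIs a cell. Their summed UMIs came to 9320007 and 2260533, so that 3 UMIs, taken here as the floor, stood for 0.322 CPM in WT and 1.33 CPM in Nuc1 members. The exact interval of a count of 0 reached 0.396 CPM in WT and 1.63 CPM in Nuc1 members. Only 2 barcode sequences occurred in both libraries, and 0 members carried one. Cryba1 itself had 0 UMIs in every cell of both libraries, so it gave no check of the genotype labels.

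A second feature set the libraries apart. Eif2s3y, a translation factor gene on the Y chromosome, was not found in WT members (0 UMIs), while 19 of the 92 Nuc1 members carried 80 UMIs of it. Over all barcodes the WT total was 3 UMIs and the Nuc1 total 912. Kdm5d, another Y-linked gene, had 0 and 7 UMIs in members. The other Y-linked genes looked up did not separate the libraries. Over all barcodes Ddx3y had 1 UMI in WT and 0 in Nuc1, and Usp9y had 0 in both. Y-linked RNA was thus next to absent from the WT library, so sex and genotype cannot be told apart in any value below.

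Actg2 encodes the gamma actin of smooth muscle, and its relative Acta2 the alpha actin that marks smooth muscle and myofibroblasts, the contractile state of fibroblasts. In such cells actin filaments are stabilised by tropomyosins (Tpm1, Tpm2), bound by transgelin (Tagln), calponin (Cnn1) and caldesmon (Cald1), and pulled by myosin whose light chains include Myl9. Many of these genes answer to serum response factor, which binds the CArG box, while the matricellular gene Ccn2 answers to YAP and TAZ acting through TEAD factors. Fibroblasts of the optic nerve lie in its meningeal sheath, along vessels and in the lamina of the nerve head.

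The 250 bases before the start of Ccn2, Actg2 and Acta2 are shown because these genes had their highest level in members within each library and their windows held a motif that was searched. They come from RefSeq on build GRCr8 and all lie on the minus strand, at chr1:22624615-22624864, chr4:117594040-117594289 and chr1:241172504-241172753. Capitals mark GGAATG, the core that TEAD factors recognise, or TGANTCA, the core of AP-1 sites, each searched on both strands.

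Ccn2: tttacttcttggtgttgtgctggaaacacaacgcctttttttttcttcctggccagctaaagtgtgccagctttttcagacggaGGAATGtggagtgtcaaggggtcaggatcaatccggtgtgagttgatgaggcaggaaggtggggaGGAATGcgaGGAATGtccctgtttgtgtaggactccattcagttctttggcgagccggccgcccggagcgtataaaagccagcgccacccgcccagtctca

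Actg2: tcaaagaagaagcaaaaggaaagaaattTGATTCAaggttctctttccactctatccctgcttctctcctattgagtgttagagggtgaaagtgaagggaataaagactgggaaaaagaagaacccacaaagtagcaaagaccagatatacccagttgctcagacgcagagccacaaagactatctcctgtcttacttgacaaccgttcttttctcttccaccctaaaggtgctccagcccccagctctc

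Acta2: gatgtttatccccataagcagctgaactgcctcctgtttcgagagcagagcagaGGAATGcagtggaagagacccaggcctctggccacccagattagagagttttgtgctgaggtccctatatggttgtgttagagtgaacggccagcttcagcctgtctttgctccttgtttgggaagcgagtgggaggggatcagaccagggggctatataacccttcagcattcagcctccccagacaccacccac

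The Ccn2 window held 3 copies of GGAATG, which began 166, 101 and 92 bases before the start. At least 1 copy lay in 12.1% of the 33469 windows of this length in the table, and 3 or more in 0.0807%. The Acta2 window held 1 copy, 196 bases before the start, and the Actg2 window 1 TGANTCA, 222 bases before it, a motif found in 6.34% of windows. Of 12 genes looked up, 8 had a window (also Mfap5, Lum, Tpm2, Cnn1 and Csrp1). These 5 held 0 copies of GGAATG and of TGANTCA, although Mfap5, Tpm2, Cnn1 and Csrp1 were likewise highest in members in both libraries, and none of the 8 held a CArG box with the 6 middle bases all A or T, which 1.5% of windows held. Only that exact form was searched. The Acta2 window holds ccctatatgg and ccttgtttgg, each with 1 middle base that is not A or T, and such forms were not counted in any window. Penk, Car3, Tagln and Myl9 were not matched. A match of letters is a description and not a binding site.

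The genes that chose the members come first, as a description without a test. UMIs were counted at the 3′ end of transcripts, so levels are compared between cell groups for a gene and not between genes. Actg2 stood at 871 CPM in WT members (852 to 890) and at 651 CPM in Nuc1 members (618 to 685). In the other 3 types Actg2 ranged from 18.8 to 36.6 CPM in WT and from 3.2 to 12.9 CPM in Nuc1. Penk, the precursor of the enkephalins, stood at 1564 CPM in WT and 2036 CPM in Nuc1 members. Penk was also carried by the Ccn3 and Rspo3 type, at 596 CPM in WT and 837 CPM in Nuc1, so that it was less confined to members than Actg2.

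The other members of the set behaved differently in the Nuc1 library. Car3, a carbonic anhydrase of muscle and fat, stood at 271 CPM in WT members and at 20.8 CPM in Nuc1 members, where 8 of 92 cells held all 47 UMIs. Mfap5, a microfibril glycoprotein, stood at 783 CPM in WT members and 130 CPM in Nuc1 members. Both were lower in Nuc1 than in WT in every one of the 4 fibroblast types. Of the WT members, 201 (37.6%) had a UMI of all 4 genes, against 2 (2.17%) of the Nuc1 members, and 14 Nuc1 members (15.2%) were chosen on 1 gene alone, against 4 WT members (0.749%). Among the 92 Nuc1 members, Penk was found in 91 and Actg2 in 62.

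Lum, Tpm2 and Ccn2, markers that took no part in the scoring, were each highest in members in the WT library. Tpm2, a tropomyosin of slow and smooth muscle, stood at 1149 CPM in WT and 1293 CPM in Nuc1 members, above its level in each other type of the same library (453 to 841 and 398 to 697 CPM). Ccn2 stood at 1104 CPM in WT members against 413 to 619 CPM in the other types, and at 422 CPM in Nuc1 members against 214 to 359 CPM. Lum, a small proteoglycan of the collagen matrix, stood at 1405 CPM in WT members against 535 to 1218 CPM in the other types. In the Nuc1 library Lum was higher in the Ccn3 and Rspo3 type (731 CPM) than in members (672 CPM), so there it did not mark them.

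**Figure D1:**
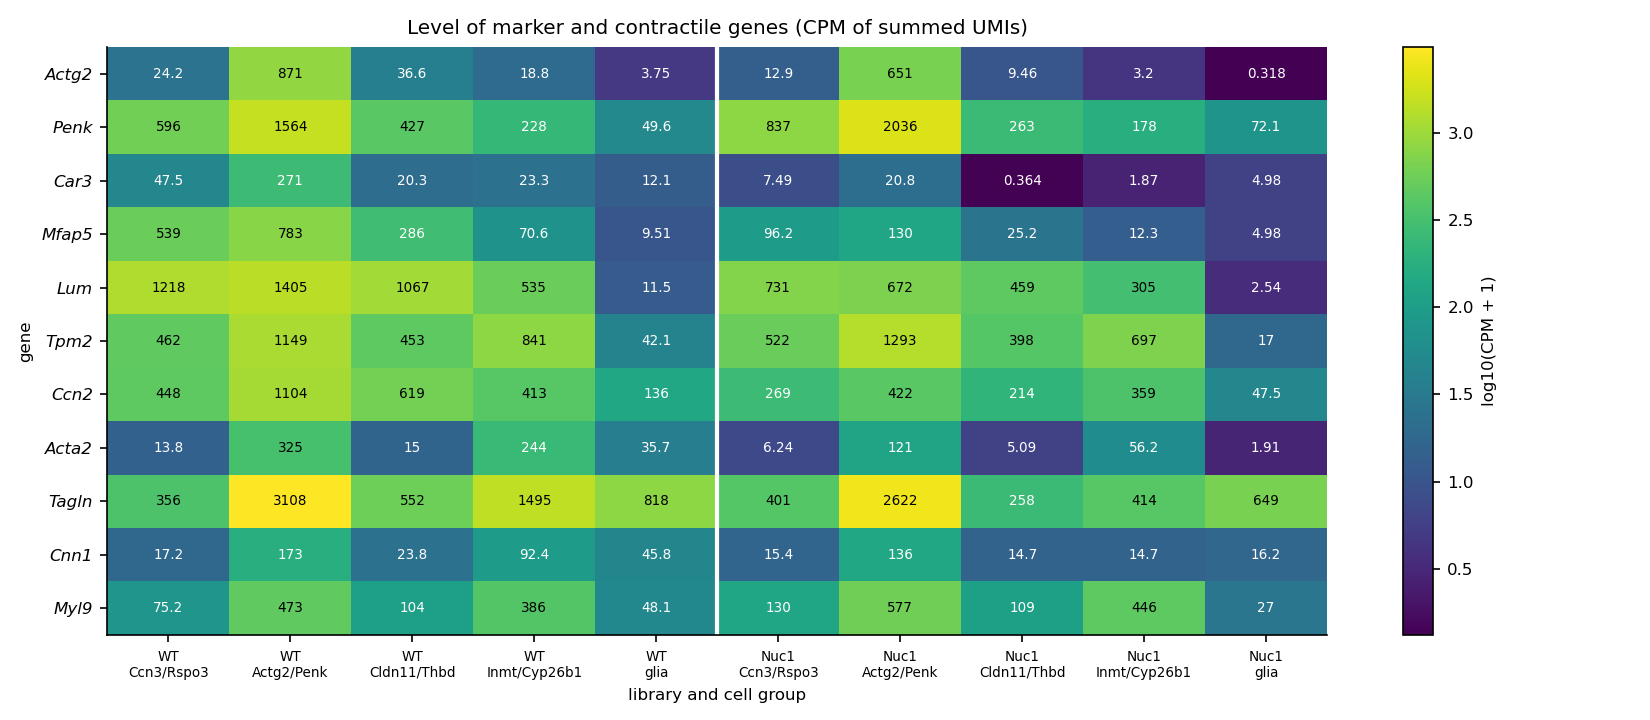
Level of 11 genes (rows) in each fibroblast type and in glia (columns, WT left and Nuc1 right), as CPM of UMIs summed over the cells, with colour on a log10 scale. Actg2 reaches 871 and 651 CPM in members and at most 36.6 CPM elsewhere, whereas Tagln is also found in glia at 818 and 649 CPM.

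Detection followed the same lines once every cell was thinned to 5000 UMIs, which left out 6 WT members and 1 Nuc1 member that were shallower. Actg2 was then found in 59.5% of WT members (55.1 to 63.7%) and 48.4% of Nuc1 members (37.7 to 59.1%), against 75.3% and 67.4% before thinning. In glia, cells with Gfap, Fabp7 and Aqp4 RNA that should lack it, the thinned share was 1.33% in WT and 0 of 396 cells in Nuc1 (up to 0.927%), where the median depths were 22836 and 21559 UMIs a cell. Penk was found in 87.7% of WT and 94.5% of Nuc1 members, with a glial share of 18% and 17.7%. Car3 was found in 41.9% and 7.69%, with a glial share of 2.67% and 0.505%, and Mfap5 in 82.4% and 30.8%, with a glial share of 6% and 1.77%.

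Actg2 was unevenly spread among the members. A cell of the WT members held a median of 192 CPM with quartiles of 29.9 and 728 CPM, and the highest cell 13460 CPM. A cell of the Nuc1 members held a median of 137 CPM, and the highest held 9440 CPM and 13.3% of all Actg2 UMIs of that group. Without that cell the Nuc1 level was 570 CPM. The 54 WT members with the most Actg2 UMIs held 62% of them, against 39.1% for Penk and 32.2% for Tpm2 in as many cells ranked by that gene. Other genes were nearly as uneven in WT, with 57.3% for Car3, 57% for Acta2 and 55.3% for Cnn1. In the top 10 Nuc1 members the share was 60% for Actg2, 29.1% for Penk and 26.8% for Tpm2. There it was 100% for Car3, 78.5% for Acta2 and 52.1% for Cnn1.

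**Figure D2:**
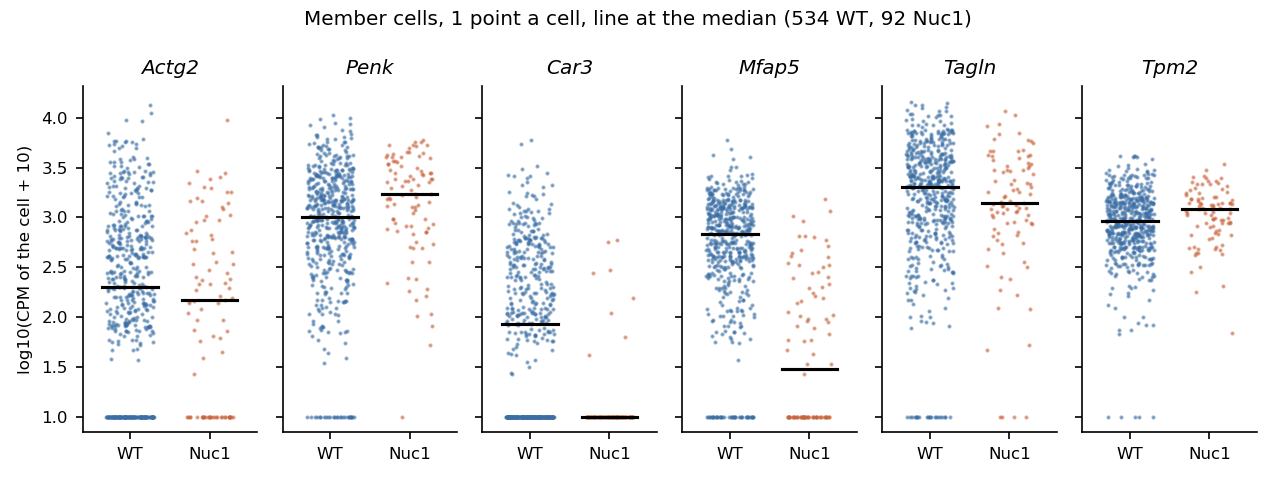
Each point is 1 member cell, with its CPM plus 10 on a log10 scale, for 534 WT and 92 Nuc1 members, and the line is the median. Cells without a UMI lie at the bottom, where nearly all Nuc1 members lie for Car3.

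Members with and without an Actg2 UMI differed in other contractile genes after thinning. In WT, Acta2 stood at 406 CPM in the 314 members with Actg2 and at 96.3 CPM in the 214 without, Tagln at 3653 and 1349 CPM, and Cnn1 at 227 and 57 CPM. The same held in Nuc1, where Acta2 stood at 195 CPM in 44 members with Actg2 and at 12.8 CPM in 47 without, and Tagln at 3491 and 1153 CPM. Lum, a matrix gene, stood at 1451 and 1449 CPM in the WT members with and without Actg2, and at 836 and 745 CPM in the Nuc1 members. Tpm1 stood at 2690 and 2794 CPM in WT and at 3050 and 3570 CPM in Nuc1. These are shared counts of the same cells and carry no test.

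Acta2 was also higher beside Actg2 when all fibroblasts were taken, members or not. Over all 1557 WT fibroblasts thinned, Acta2 stood at 326 CPM in the 420 with Actg2 and at 33.8 CPM in the 1137 without. In Nuc1, 80 of 1177 fibroblasts had Actg2, with Acta2 at 115 CPM against 23 CPM in the rest. Lum too was higher beside Actg2 here, at 1426 against 1197 CPM in WT and at 830 against 452 CPM in Nuc1. The share of fibroblasts with an Actg2 UMI was 27% in WT (24.8 to 29.3%) and 6.8% in Nuc1 (5.43 to 8.39%), counted at equal depth and without the scoring. Members held 95% of all Actg2 UMIs of WT fibroblasts and 91.7% of those of Nuc1 fibroblasts, a share set in part by the rule, which used Actg2. Of Tpm2, outside the sets, they held 58.5% and 23.1% of the UMIs. Members were 33.9% of WT and 7.69% of Nuc1 fibroblasts, with more UMIs a cell in the median than each other type, so these shares are not compared between libraries.

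When Actg2 was left out of the set, the other 3 genes chose 596 WT and 91 Nuc1 cells, which held 503 and 78 of the members. Actg2 stood at 755 CPM in those WT cells against 57.2 CPM in the other WT fibroblasts, which is 13.2-fold, and at 472 against 33.6 CPM in Nuc1, which is 14-fold. Left out in turn, Penk was 2.29-fold and 4.37-fold higher in the cells chosen by the rest, Car3 2.73-fold and 6-fold, and Mfap5 1.49-fold and 3.42-fold. The members and their genes were chosen with earlier results of these same cells known. These folds are therefore a description and no independent check of the group.

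The border of the group was soft. The score of the set exceeded the next set's by a median of 0.723 in WT and 0.489 in Nuc1 members, and by under 0.25 in 116 (21.7%) and 28 (30.4%) of them. The next highest set was that of Ccn3 and Rspo3 in 315 of the 534 WT members, and that of Inmt and Cyp26b1 in 41 of the 92 Nuc1 members. Within 0.1 of the border, the 48 WT cells just inside held 128 CPM of Actg2, 1095 CPM of Penk, 116 CPM of Car3 and 533 CPM of Mfap5, and the 61 just outside 66.6, 907, 53.7 and 523 CPM. In Nuc1 the 14 cells just inside held 193 CPM of Actg2 and 1083 CPM of Penk, and the 17 just outside 36.7 and 857 CPM. Car3 and Mfap5 were higher outside in Nuc1, at 0 and 28.4 CPM inside and 34.3 and 108 CPM outside.

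Next come the contractile genes, a list of 25 of which 18 had a mean of at least 20 CPM over the 4 types of both libraries. With 20 CPM added to both sides, 5 of the 18 were at least 2-fold higher in members than in the mean of the other types in both libraries, namely Actg2, Tagln, Acta2, Cnn1 and Myl9, and 0 were lower. Over the 5565 genes examined this held for 0.27% in the higher and 0.988% in the lower direction. The choice of members used these cells, so nothing is read from the counts. The median log2 difference of the list was 0.68 in WT and 0.76 in Nuc1, beside -0.03 and -0.04 over all 5565 genes.

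Tagln led the genes outside the sets, at 3108 CPM in WT and 2622 CPM in Nuc1 members, against 356 to 1495 CPM and 258 to 414 CPM in the other types. Acta2 stood at 325 CPM in WT members, with the Inmt and Cyp26b1 type next at 244 CPM and the other types at 13.8 and 15 CPM. In Nuc1, Acta2 stood at 121 CPM in members and at 56.2 CPM in the Inmt and Cyp26b1 type. Cnn1 stood at 173 and 136 CPM in members, Myl9 at 473 and 577 CPM. In the Inmt and Cyp26b1 type Myl9 stood at 386 and 446 CPM.

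Not every contractile gene was highest in members. Itga8, an integrin subunit, was lower in members (28.3 and 32.7 CPM) than in the Inmt and Cyp26b1 type (44.3 and 167 CPM). Tpm1 was lower in members than in each other type, at 2526 CPM in WT and 3142 CPM in Nuc1, whereas Tpm2 was higher. Tropomyosin genes thus differed in their pattern.

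**Figure D3:**
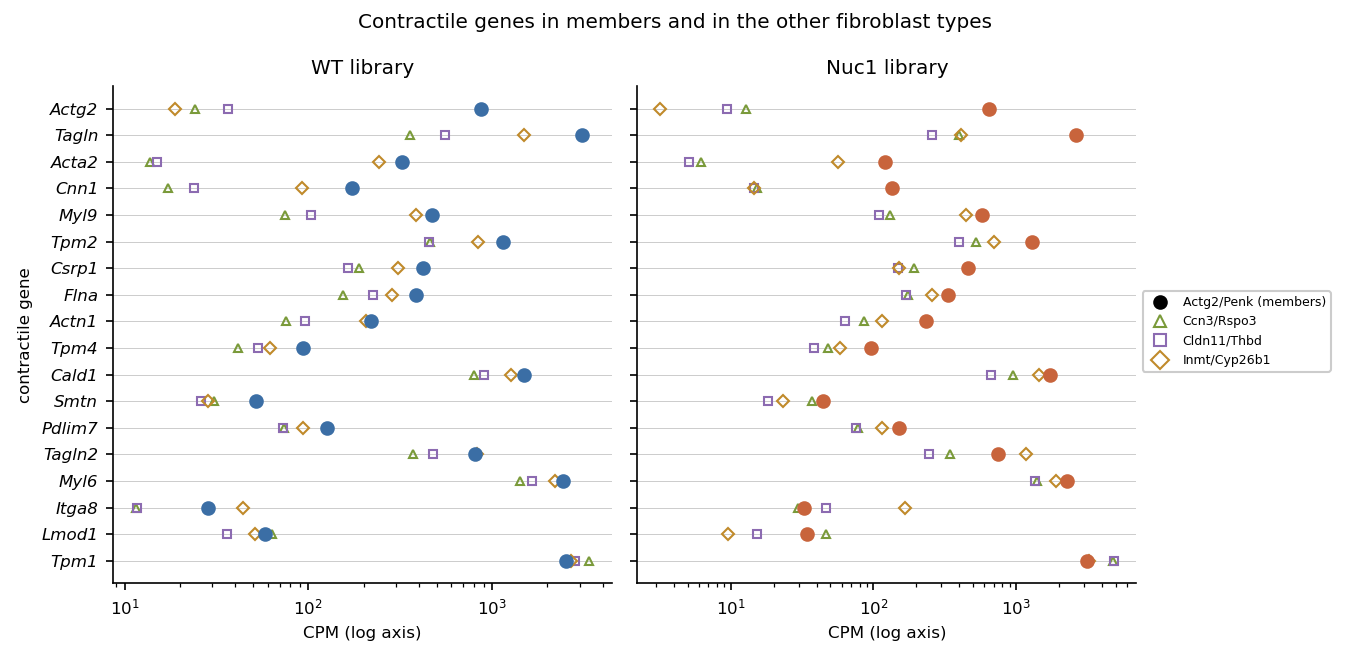
Level of 18 contractile genes (CPM, log axis) in members (filled circles) and in the other 3 fibroblast types (open symbols), WT left and Nuc1 right. Actg2 helped to choose the members, so its gap follows from the rule. Of genes outside the sets, Tagln and Cnn1 lie above the other types in both libraries and Tpm1 lies below them.

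Of 10 markers of smooth muscle and pericytes, 8 had a UMI in WT members and 6 in Nuc1 members. Their sum was 248 and 187 CPM, the highest of the 4 types in each library, and Cnn1 and Lmod1, which are also contractile genes, made up most of it. That rank came from Cnn1, at 173 and 136 CPM in members against 17.2 to 92.4 and 14.7 to 15.4 CPM in the other types. Lmod1 was lower in members (58.5 and 34.5 CPM) than in the Ccn3 and Rspo3 type (63.5 and 46.6 CPM). Myh11, the smooth muscle myosin heavy chain, stood at 1.18 and 1.77 CPM, Des at 0.107 and 0.442 CPM and Rgs5 at 1.72 and 2.65 CPM. Kcnj8 and Abcc9, the potassium channel genes of pericytes, were at 0 in both. A low count does not show that a gene was not expressed, since Myh9, a myosin heavy chain of most cells, had 2 UMIs in WT and 0 in Nuc1 members. Myocd, the coactivator that drives the smooth muscle programme, had 2 UMIs in WT and 0 in Nuc1 members. Of 8 skeletal muscle genes, Myod1, Myog, Ckm, Pax7 and Myf5 were at 0 in both.

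Fibroblast genes were present throughout. Among the most abundant genes of WT members were Vim at 8949 CPM, Col1a1 at 6176 CPM, Sparc at 4889 CPM, Fn1 at 3680 CPM and Col3a1 at 3377 CPM. Col1a1 and Col3a1 were among the genes that picked out fibroblasts, so their presence follows in part from the rule. Pdgfra, a receptor of most fibroblasts, stood at 52.4 CPM in WT and 63.7 CPM in Nuc1 members, the lowest of the 4 types in each library. Of 9 fibroblast and adventitia genes examined, S100a4 and S100a6, small calcium-binding proteins, were at least 2-fold higher in members in both libraries (303 and 319 CPM, 8011 and 8127 CPM). None was lower, and over all genes examined 0.27% were higher and 0.988% lower. Fn1 was higher in members by 0.61 in WT and 0.86 in Nuc1 on the log2 scale, and Tnc, tenascin C, by 0.6 and 0.88.

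The other leading genes were of mixed kinds. Rgcc, a regulator of the cell cycle, stood at 385 CPM in WT and 190 CPM in Nuc1 members, Vcan, a large proteoglycan, at 356 and 147 CPM, and Cryab, a small heat shock protein of muscle and lens, at 198 and 137 CPM. Stmn2, a microtubule regulator best known from growing axons, stood at 927 and 729 CPM, against 66.8 to 398 CPM and 157 to 318 CPM in the other types. Of the 6 neuron genes that were listed, Stmn2 among them, 5 had a UMI in each library. They summed to 1090 and 823 CPM, with Gap43 at 142 and 71.2 CPM, Syt1 at 16.7 and 19.9 CPM, Tubb3 at 3.22 and 1.77 CPM, Snap25 at 1.07 and 0.885 CPM and Rbfox3 at 0 in both, and the part of neuronal RNA in the level of Stmn2 was not tested. Dpysl3 (539 and 529 CPM) and S100a11 (946 and 783 CPM) completed the 15 genes past 2-fold in both libraries.

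A ranking added after the values were seen named genes that were low in members against the mean of the other 3 types, a mean that 1 type can set. Igfbp5, an IGF-binding protein, stood at 538 CPM in WT and 288 CPM in Nuc1 members, against 931 to 2639 CPM and 511 to 2733 CPM elsewhere. Apoe, a lipid carrier, stood at 197 and 82.3 CPM in members, and at 1627 and 4255 CPM in the Inmt and Cyp26b1 type. In the Ccn3 and Rspo3 type it stood at 146 and 142 CPM and in the Cldn11 and Thbd type at 247 and 268 CPM, so in WT members were not the lowest. Ptn and Mdk, heparin-binding growth factors for neurites, stood at 559 and 134 CPM in WT members. In Nuc1 members they stood at 364 and 87.6 CPM, and Ptn was lowest in members in both libraries. Mdk was lower in members than in the Inmt and Cyp26b1 type (688 and 1102 CPM) but not than in the Ccn3 and Rspo3 (123 and 64.5 CPM) or the Cldn11 and Thbd type (132 and 71.8 CPM). Fbln1, fibulin 1, stood at 53.3 and 158 CPM, the lowest of the 4 types in each library.

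Lists of signalling and matrix genes were counted in the same way, beside the 0.27% of all genes that were higher and 0.988% that were lower. Of 9 IGF genes examined, 2 (Igfbp2 and Igfbp5) were at least 2-fold lower in members in both libraries and 0 were higher. Of 4 retinoic acid genes, Cyp26b1, which the rule scored against members, and Aldh1a2, which makes retinoic acid, were lower and 0 higher, and Aldh1a2 stood at 4.29 and 2.21 CPM in members against 103 and 136 CPM in the Inmt and Cyp26b1 type. Of 12 collagens, 0 were past 2-fold in either direction in both libraries, and of 7 small leucine-rich proteoglycans Prelp alone was lower.

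Of the 17 opioid and neuropeptide genes listed, 6 had 0 UMIs in members of both libraries, which for the reason given above does not show that they were not expressed. Of the precursor genes, Pdyn was at 0 and Pomc at 7.3 CPM in WT and 4.87 CPM in Nuc1 members. The receptor genes Oprm1 and Oprd1 were at 0 and Oprk1 had 16 UMIs in WT and 0 in Nuc1. Pcsk1, the convertase that cuts proenkephalin, was at 0 in both and Pcsk2 had 1 UMI in WT. Cpe, the carboxypeptidase of the next step, was present at 184 and 136 CPM, below its level in each other type. Pam, the enzyme that amidates peptides, stood at 95.1 CPM in WT members, against 50.8 to 90.1 CPM in the other types, and at 42.9 CPM in Nuc1 members, against 23.3 to 57.8 CPM. The granule proteins Chga and Chgb were at 0. Ogfr, a receptor for a form of enkephalin in growth control, stood at 77.5 and 96.4 CPM.

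Members made up 33.9% of the WT fibroblasts (31.5 to 36.3%) and 7.69% of the Nuc1 fibroblasts (6.25 to 9.35%), or 27.1% and 5.13% of all kept cells. The share rests on the genes of the sets, and Car3 and Mfap5 were lower in Nuc1 in all 4 types. With the z-scores taken within each library, 418 WT cells (26.5%) and 187 Nuc1 cells (15.6%) were chosen, and Actg2 then stood at 1044 and 379 CPM in them. The share in Nuc1 thus moved with the rule by more than its interval. What the tissue, the culture and the capture of cells added was not tested.

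**Figure D4:**
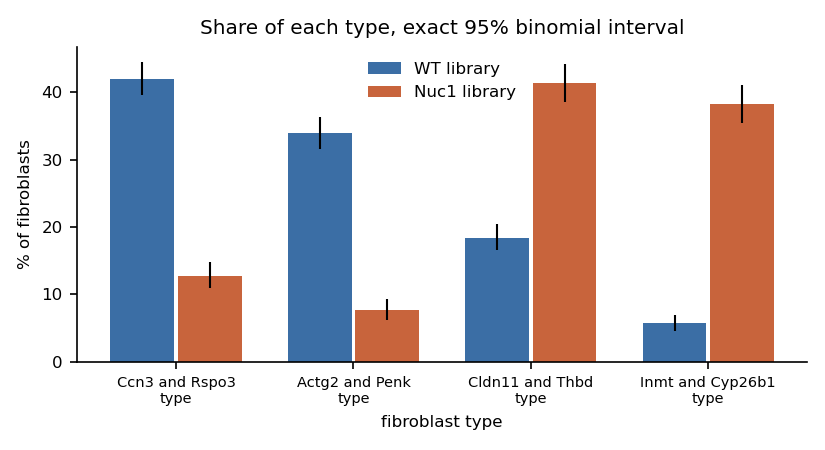
Share of fibroblasts (%, bars from 0) given to each of the 4 types in the WT and Nuc1 libraries, with exact binomial 95% intervals that cover counting error only. The Actg2 and Penk type takes 33.9% and 7.69%, under a rule whose genes Car3 and Mfap5 were lower in Nuc1 in all types.

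Within members, the Nuc1 library was compared with the WT library by the log2 ratio of CPM. Of 7508 genes with at least 100 UMIs, 484 were at least 2-fold apart (6.45%), 107 higher in Nuc1 (1.43%) and 377 lower (5.02%). The median over these genes was -0.04. With each member thinned to 5000 UMIs the count was 251, over fewer genes with enough UMIs. For the set genes, Actg2 had a log2 ratio of -0.42 (-0.50 to -0.34) and Penk of 0.38 (0.33 to 0.43), but both also set which cells were chosen. Without Penk in the set the ratio of Actg2 was 0.0157. In the cells chosen within each library Penk turned to -0.21, and Actg2 stood at 1044 CPM in WT and 379 CPM in Nuc1.

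Of 21 contractile genes with at least 20 UMIs, 0 were 2-fold higher and 1, Acta2, was 2-fold lower in Nuc1, and the list's median log2 ratio was 0.03. Among all 10161 genes with as many UMIs, 2.87% were higher and 8.15% lower, so the list's counts are near the background. Acta2 had a log2 ratio of -1.42 (-1.61 to -1.25), from 325 to 121 CPM, and 21.2% of its 274 UMIs in Nuc1 lay in 1 cell. Without the highest cell of each library it stood at 316 and 96.4 CPM. Tagln had a ratio of -0.25 (-0.29 to -0.21), Cnn1 of -0.35 (-0.53 to -0.17) and Myl9 of 0.29 (0.20 to 0.38). These intervals cover counting error only. The directions of Tagln and Myl9 turned with the choice of members, since Tagln was at 0.036 without Penk in the set and Myl9 at -0.25 with scores within each library. Acta2 and Cnn1 were not among the ratios that changed sign. With scores within each library Tagln stood at 3498 CPM in WT and 1872 CPM in Nuc1, Cnn1 at 201 and 85.8 CPM and Acta2 at 381 and 101 CPM. The list's median was -0.31 with scores within each library and -0.26 when members with 300 CPM or more of Pttg1, Cdkn3 and Stmn1 were left out.

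Of 13 genes on the list of serum response factor and YAP, their partners and their targets, 5 were at least 2-fold lower in Nuc1 (Ccn2, Srf, Tead1 and Thbs1 among them), 0 were 2-fold higher, and the median was -0.87, beside 8.15% lower, 2.87% higher and a median of -0.04 over all genes with as many UMIs. Ccn2, whose 3 TEAD cores are shown above, had a log2 ratio of -1.39 (-1.48 to -1.29), and Ccn1, its close relative, one of -0.87 (-1.05 to -0.70). Srf itself had -1.11, from 46 to 21.2 CPM. Thbs1, thrombospondin 1, had -1.17, from 65.9 to 29.2 CPM. Vcl, vinculin of focal adhesions, stood at 338 and 405 CPM, and Axl and Fhl2 also had ratios above 0 (0.37 and 0.10). The list's median was also negative in the other types, at -0.64 in the Ccn3 and Rspo3, -1.15 in the Cldn11 and Thbd and -0.3 in the Inmt and Cyp26b1 type.

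Genes that answer to tissue dissociation moved with these values. Of 11 such genes, 6 were at least 2-fold lower in Nuc1 members and 0 higher, with a median of -1.04, beside 8.15% lower, 2.87% higher and a median of -0.04 over all genes. Their summed level was 5779 CPM in WT and 2927 CPM in Nuc1. Egr1 stood at 1227 and 518 CPM, Nr4a1 at 422 and 93.8 CPM and Fosb at 279 and 79.2 CPM. The median was between -0.97 and -0.84 in the other 3 types. Srf drives several of these genes, and the part of the dissociation response in the values of Ccn2, Ccn1 and Srf was not tested.

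Of 17 collagens, 4 were at least 2-fold lower in Nuc1 and 0 were 2-fold higher, beside the same 8.15% and 2.87% of all genes. The median was -0.66, and 3 collagens (Col4a2, Col6a1 and Col14a1) had a ratio above 0. Col1a1 stood at 6176 and 3460 CPM (log2 ratio -0.84), Col8a1 at 1094 and 421 CPM (-1.38) and Col12a1 at 78.9 and 27.4 CPM (-1.52). Col15a1, a collagen of basement membrane zones, stood at 24 CPM in WT and 1.77 CPM (4 UMIs) in Nuc1 members, while in the Inmt and Cyp26b1 type it stood at 19.5 and 82.3 CPM. That contrast between types was not tested.

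Of 9 small leucine-rich proteoglycans, 5 were at least 2-fold lower in Nuc1 and 0 higher, with a median of -1.06, beside 8.15% lower and 2.87% higher over all genes. Of the 5, Kera rested on 2 UMIs in Nuc1 members (log2 ratio -1.67, -4.88 to 0.22) and Ecm2 on 1 UMI (-2.01, -7.58 to 0.45). With every count under 3 set to 3, a choice made after the values were seen, 4 of the 9 were lower and the median was -0.96, beside 739 lower of all 10161 genes. Dcn, decorin, stood at 1492 and 656 CPM (log2 ratio -1.19) and Lum at 1405 and 672 CPM (-1.06). Dcn and Lum were also among the genes that picked out fibroblasts. Bgn, biglycan, stood at 1702 and 1915 CPM (0.17), and Prelp also had a ratio above 0 (0.60). Of 14 genes of elastic fibres, set beside the same shares, Fbln1 alone was 2-fold higher in Nuc1 and 4 (Eln, Mfap5, Ltbp4 and Fbln2) were 2-fold lower. Mfap5 helped to choose the members, so its value was set in part by the rule. Fbn2 and Efemp2 also had ratios above 0 (0.12 and 0.16). Fbln2 had 21 UMIs in WT and 0 in Nuc1 members, and with counts under 3 set to 3 it was not among the 3 that stayed lower. Eln, elastin, stood at 87.9 and 19 CPM, and Fbn1, fibrillin 1, at 317 and 213 CPM. The medians of the collagens and of the proteoglycans were negative in the other 3 types too, at -0.47 to -0.39 and -1.08 to -0.31.

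**Figure D5:**
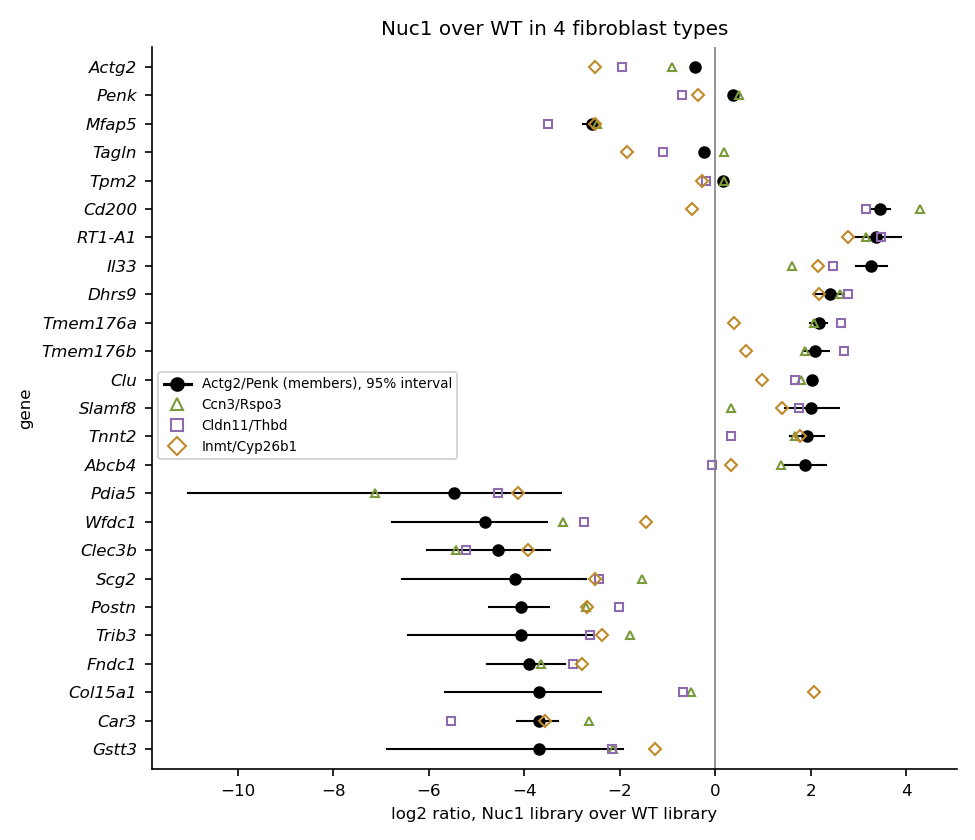
Log2 ratio of Nuc1 over WT (horizontal axis) in members (black, with 95% counting intervals) and in the other 3 fibroblast types (open symbols), for 5 genes of the type and the 10 highest and 10 lowest genes of members. The 10 highest and 10 lowest genes lie on the same side of 0 in all 4 types, except Cd200 and Col15a1 in the Inmt and Cyp26b1 type and Abcb4 in the Cldn11 and Thbd type.

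The genes highest in Nuc1 members were mostly high in the other Nuc1 fibroblasts too. Cd200, a membrane ligand that restrains myeloid cells, stood at 29 CPM in WT and 315 CPM in Nuc1 members, a log2 ratio of 3.44 (3.24 to 3.65). Its ratio was 4.3 in the Ccn3 and Rspo3 type, 3.16 in the Cldn11 and Thbd type and -0.48 in the Inmt and Cyp26b1 type. RT1-A1, a class I gene of the rat MHC, had a ratio of 3.36 in members and of 2.78 to 3.47 elsewhere. Class I genes have near-identical copies and differ between rat strains, so its counts are uncertain. Il33, an alarmin kept in the nucleus, stood at 12.2 and 117 CPM, and Clu, the chaperone clusterin, at 253 and 1036 CPM.

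Dhrs9, a retinol dehydrogenase, had a log2 ratio of 2.4, and Tmem176a and Tmem176b, neighbouring membrane protein genes, had 2.17 and 2.1. Tnnt2, the troponin T of heart muscle, had 1.91, from 15.6 to 58.8 CPM, with 1.66 in the Ccn3 and Rspo3 type, 1.76 in the Inmt and Cyp26b1 type and 0.32 (-0.15 to 0.81) in the Cldn11 and Thbd type. Slamf8 (2.0) and Abcb4 (1.87) completed the list, and Abcb4 had ratios of -0.08 in the Cldn11 and Thbd type and 0.33 in the Inmt and Cyp26b1 type.

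The genes lowest in Nuc1 members were lower in most other types likewise. Postn, periostin, stood at 172 CPM in WT and 10.2 CPM in Nuc1 members, a log2 ratio of -4.07 (-4.74 to -3.49), and its ratio lay between -2.71 and -2.02 in the other types. Fndc1 stood at 93.1 and 6.19 CPM, Clec3b, the plasminogen-binding protein tetranectin, at 64.2 and 2.65 CPM, and Wfdc1, a protease inhibitor-like secreted protein, at 52.5 and 1.77 CPM. Pdia5, a protein disulphide isomerase, had 219 UMIs in WT and 1 UMI in Nuc1 members, a log2 ratio of -5.48 (-11.04 to -3.24). Scg2 and Trib3 had 3 UMIs each and Gstt3 2 UMIs in Nuc1 members, with ratios of -4.19 (-6.57 to -2.71), -4.07 (-6.44 to -2.59) and -3.69 (-6.88 to -1.93).

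The counts of the next lists stand beside 2.87% higher and 8.15% lower over all genes with at least 20 UMIs. Of 18 TGF-beta and CCN genes, 4 were 2-fold lower in Nuc1 (Ccn3, Ccn5, Tgfb3 and Smad7) and 2 higher (Ltbp1 and Grem1), with a median of -0.46. Ccn3 was scored against members by the rule, so its value was partly set by the choice of cells. Of 10 IGF genes, Igf1, Igfbp3 and Igfbp7 were lower and 0 higher, with a median of -0.54, and Igf1 stood at 179 and 45.6 CPM. Of 5 carbonic anhydrase genes, Car3, Car13 and Car2 were lower, Car2 on 2 UMIs in Nuc1 with a ratio of -1.62 (-4.83 to 0.28). Car3 helped to choose the members, so its value was also set in part by the rule. Of 13 fibroblast and adventitia genes, Clec3b, Postn and Thy1 were lower, Thy1 on 1 UMI in Nuc1 with a ratio of -2.94 (-8.51 to -0.60). Of 9 cell division genes, 3 were higher in Nuc1 members (Mki67, Ccnb1 and Mcm3), although cells over the limit for division had been left out. Mki67 was itself among the genes of that limit, which capped its level in each cell.

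Of the genes that the study followed in astrocytes, 0 of 6 detected were 2-fold apart in members. Over all genes with at least 20 UMIs, 2.87% were higher and 8.15% lower in Nuc1. In Nuc1 astrocytes the study reported lower Jak2 and Lepr RNA and no noticeable change in Il6st and Pik3ca. For PTP1B it measured enzyme activity and for STAT3 phosphorylation, so the RNA of Ptpn1 and Stat3 is a different measure. The values below are of members, which are fibroblasts, and were not compared with astrocytes. Stat3 stood at 118 CPM in WT and 97.8 CPM in Nuc1, Jak2 at 36.2 and 27.4 CPM, Lepr at 47.9 and 38.9 CPM and Il6st at 34.9 and 37.2 CPM. Ptpn1, the gene of PTP1B, stood at 50.8 and 99.5 CPM, a log2 ratio of 0.97 with an interval across the 2-fold limit (0.74 to 1.20). Its ratio was 1.05 in the Ccn3 and Rspo3, 0.91 in the Cldn11 and Thbd and 0.09 in the Inmt and Cyp26b1 type.

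RNA of other cell types was measured beside these comparisons. The 8 macrophage genes summed to 31.3 CPM in WT and 2.21 CPM in Nuc1 members, with Tyrobp the most abundant in WT, and 3 WT members held 88% of the 292 macrophage UMIs. The 8 astrocyte genes summed to 1417 and 1349 CPM, nearly all Gja1, which fibroblasts also express. Gfap stood at 4.51 and 16.4 CPM and Fabp7 at 4.61 and 13.7 CPM, and 4 of 7 astrocyte genes were 2-fold higher in Nuc1 members, beside 2.87% of all genes. The Nuc1 library held 406 glial cells and the WT library 156. Endothelial genes summed to 17.4 and 16.4 CPM, mostly Tek, with Cdh5 and Cldn5 at 0. Sox10, a factor of Schwann cells and the oligodendrocyte lineage, had 1 UMI in WT and 0 in Nuc1 members. The part of glial RNA in the ratios above was not tested.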

How the data were processed

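The authors deposited, for each library, the UMI counts of each gene in each barcode, not normalized, made with a droplet-based 3′ kit. Per the labels and the study's methods they used Cell Ranger 3.1.0 and STAR 2.7, and Seurat 3.1.0 and 3.1.1 for their own analysis. The genome build is not given in the sources used here. The files held 25399 genes, of which 99 symbols were listed more than once and were not named. UMIs of the chosen cells were summed per library and type and scaled to CPM. A log2 ratio had 0.5 UMI added to each sum and an exact conditional interval. Intervals of CPM are exact Poisson and those of shares exact binomial (Clopper-Pearson), all at 95%. Scrublet in scanpy 1.11.5, at an expected rate of 2%, marked 5 WT and 11 Nuc1 cells and 0 members. The shares, 0.254% in WT and 0.613% in Nuc1, were both below that rate, so doublets can remain and were not removed. The calculations were tested on simulated data. Python 3.11.15, numpy 2.4.6, scipy 1.17.1 and, for TMM scaling as an alternative, edgeR 4.0.16 were used.

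The members, the markers and the gene lists were chosen with earlier results of these data known. Named genes are the set, marker and list genes, the 10 highest against the other types with at least 50 CPM, and the 10 highest and 10 lowest Nuc1 to WT ratios of genes that had 100 UMIs or more, leaving out unnamed, mitochondrial and ribosomal genes, genes with over 20% of UMIs in 1 cell of the library where they were higher, and genes whose sign changed on thinning. The genes lowest against the other types, the minimum of 20 CPM for that contrast, and Dpysl3 and S100a11 were chosen after their values were seen. Alternatives were other limits on cells, scores within each library, a margin of 0.25, thinning, other scalings and leaving out each set gene.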

Additional observations from a re-analysis of the deposited data

Results flagged for a closer look

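Glul, glutamine synthetase, had a log2 ratio of -0.29 in members, at 157 CPM in WT and 128 CPM in Nuc1, while it was positive in each other type (0.45, 0.63 and 0.87). The difference between types was not tested, and the sign in members changed under other choices of members.

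Signal also lay outside the members. Fibroblasts left out for division genes, scored together with the rest, had the set highest in 113 WT and 31 Nuc1 cells, with Actg2 at 1567 CPM (1523 to 1612) in WT and 1049 CPM (988 to 1112) in Nuc1, above the members of the same library. Tagln stood at 4326 and 3641 CPM there. The 139 WT barcodes left out for few genes or a high mitochondrial share held 45 Actg2 UMIs, or 94.3 CPM (68.8 to 126), and the 136 such Nuc1 barcodes held 1 UMI.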

How the results depend on the processing

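No paired analysis was possible because only 2 libraries were made, 1 from each genotype. Of 19 alternatives, 17 applied to single genes, and under these 78 gene ratios gave 1326 values, of which 1055 moved by less than their interval, 247 moved more and 24 changed sign. The count of 484 genes at least 2-fold apart was 221 with cells thinned before scoring, 251 thinned with the same members, 1120 with a minimum of 20 UMIs and 4054 with none. The difference in share of fibroblasts, Nuc1 minus WT, was -26.2 points, and -10.9 with scores within each library, -21.2 with a margin of 0.25, -30.2 without Actg2 and -21.2 without Mfap5. The contractile median of 0.03 was -0.31 with scores within each library and -0.26 when members with 300 CPM or more of Pttg1, Cdkn3 and Stmn1 were left out, an alternative added after the data were seen. With scores within each library the ratio was -0.21 for Penk, -0.16 for Tpm2, -0.054 for Tnmd, -0.25 for Myl9, 2.18 for Apoe, 0.0032 for Igfbp5, 0.65 for Glul, 0.0264 for Mdk, -0.0339 for Cald1, -0.26 for Csrp1 and -0.0505 for Pdlim7. Without Penk in the set it was 0.0157 for Actg2, 0.036 for Tagln, 0.47 for Apoe and 0.0584 for Tagln2, and without Mfap5 0.297 for Apoe, 0.0074 for Glul and -0.0477 for Csrp1. With cells thinned before scoring it was 0.0846 for Glul, 0.0077 for Tagln2 and -0.0535 for Pdlim7, and with the added limit -0.0318 for Tpm2, 0.12 for Glul and -0.0996 for Csrp1. The cause was not tested. TMM scaling moved all log2 ratios by -0.0043 and centring on the median by 0.04. Genes under 3 UMIs in Nuc1 members cannot be told from 0.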
